A study of Mus musculus with 16 samples.

Results

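The last steps of mitochondrial respiration were followed through the messenger RNAs of 32 genes, chosen by name from the nuclear genes of complex III, complex IV and ATP synthase. The set held 9 genes of complex III, cytochrome c (Cycs), 6 genes of complex IV, 15 genes of ATP synthase and the ATP synthase inhibitor Atpif1. Of these 32 genes, 31 were measured among the 22911 gene symbols that the array's RefSeq identifiers gave, and Cox5b was not matched to a probe in this way and was not analysed here. RNA from brown adipose tissue (BAT) and gonadal white adipose tissue (gWAT) had been hybridized to one-colour Agilent arrays, 4 per tissue and genotype. Adipo-Pgam1 KO mice carried Adipoq-Cre and floxed Pgam1, so that Cre, made under the Adiponectin promoter, removes in adipocytes this enzyme of glycolysis, and littermate controls carried floxed Pgam1 without Cre. All mice were males labelled C57BL/6NCrSlc, aged 16 weeks, but knockout replicate 4 was aged 14 weeks in BAT and in gWAT alike. Nothing in the labels says whether the BAT and gWAT arrays came from the same animals. The p-values measure the spread between the arrays of a group.

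Complex III takes electrons from ubiquinol and hands them to cytochrome c, a small soluble carrier, and complex IV passes them from cytochrome c to oxygen. Both complexes pump protons out of the mitochondrial matrix, and ATP synthase lets protons back in through a rotating ring of c subunits and uses their flow to make ATP. In brown adipocytes, UCP1 offers the protons another way back, so that much of the energy is given off as heat, and brown fat is known for a dense respiratory chain with comparatively little ATP synthase. The c subunit is made from 3 genes, Atp5g1, Atp5g2 and Atp5g3, which encode the same mature protein behind different mitochondrial import sequences. Atp5g1 is known as the gene whose supply can limit the amount of ATP synthase in brown fat. Atpif1 encodes a small protein that binds the enzyme and blocks it from running backwards and using up ATP.

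Levels are log2 of the scanner's background-subtracted signal minus log2 of the 75th percentile of the same array, taken from the brightest probe of each gene. They compare 1 gene between arrays and not 1 gene with another, because probes differ in brightness. All 31 genes were well above background on all 16 arrays. Changes were tested with limma across all genes, with p-values adjusted over all genes tested by the method of Benjamini and Hochberg, and "rose" or "fell" is used below an adjusted p of 0.05. Pgam1 itself was lower in BAT of Adipo-Pgam1 KO mice, between 6.03 and 6.43 against 7.82 to 8.07 in controls. In gWAT its level was 5.95 to 6.50 in the arrays labelled Adipo-Pgam1 KO against 5.07 to 5.67, that is, higher, so the targeted gene does not check the gWAT labels, and directions in gWAT are given as the arrays were labelled. The arrays lay on 3 slides, and in each tissue only control replicate 4 shared the slide of the 4 knockout arrays.

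The promoters of 4 of the genes are shown because these genes split in BAT: Atp5g1 and Atpif1 rose there in Adipo-Pgam1 KO mice, whereas Atp5g2 and Atp5b, the catalytic beta subunit, fell with the other genes. The sequences are from RefSeq (GRCm38.p6), 5′ to 3′ on the strand of the gene, and end just before the start of its longest transcript. Capitals mark the motifs found: the NRF-1 palindrome in Atp5g2, AAGGTCA, an element of estrogen-related receptors, and a GC box (GGGCGG or CCGCCC) in Atpif1, and GC boxes in Atp5b. Atp5g1 lies at chr11:96075695-96075881, Atp5g2 at chr15:102671048-102671297, Atpif1 at chr4:132535451-132535664 (all 3 on the minus strand) and Atp5b at chr10:128083057-128083306 (plus strand).
Atp5g1: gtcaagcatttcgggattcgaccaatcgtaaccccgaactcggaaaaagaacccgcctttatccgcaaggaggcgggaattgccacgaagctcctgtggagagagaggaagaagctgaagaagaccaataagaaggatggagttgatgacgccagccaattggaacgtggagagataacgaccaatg
Atp5g2: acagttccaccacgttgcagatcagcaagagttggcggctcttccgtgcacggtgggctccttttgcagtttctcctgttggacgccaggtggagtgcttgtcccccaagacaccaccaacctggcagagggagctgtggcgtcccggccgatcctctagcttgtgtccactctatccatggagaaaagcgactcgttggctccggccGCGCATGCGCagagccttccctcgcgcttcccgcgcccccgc
Atpif1: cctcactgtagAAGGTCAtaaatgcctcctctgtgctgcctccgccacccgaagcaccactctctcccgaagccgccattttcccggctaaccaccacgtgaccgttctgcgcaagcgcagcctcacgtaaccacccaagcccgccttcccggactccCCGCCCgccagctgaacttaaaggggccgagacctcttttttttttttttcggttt
Atp5b: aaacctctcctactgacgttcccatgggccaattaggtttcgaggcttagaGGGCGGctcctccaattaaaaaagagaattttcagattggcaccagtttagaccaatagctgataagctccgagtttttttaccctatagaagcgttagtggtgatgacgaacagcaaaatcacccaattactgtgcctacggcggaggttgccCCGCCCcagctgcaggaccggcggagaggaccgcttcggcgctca

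Promoters, from 250 bases before to 50 after the start, were given for 26 of the 32 genes, 29 promoters in all. Only the 250 bases before the start were searched, for 7 motifs and on both strands. The NRF-1 palindrome was found in 6.90% of these promoters (Atp5k and Atp5g2) and in 0.782% of all 32851 promoters of the table. CCGGAAG, a site of ETS factors such as GABPA, was in 24.1% and 6.91%, AAGGTCA in 10.3% (Atp5g3, Atpif1 and Atp5l) and 4.08%, and TGACGTCA, bound by CREB, in 6.90% (Cycs and Uqcrfs1) and 1.55%. AAGATGGC, bound by YY1, was in 3.45% and 1.57%, the GC box in 20.7% and 32.7%, and TGATGCAA, bound by ATF4, in none and in 0.792%. None of the 7 was in the 250 bases searched for Atp5g1. The same held for Atp5c1, Atp5d, Atp5j2, Atp5o, Cox7b, Cox7c, Uqcr10 and Uqcrc1, all of which fell in BAT, and for the unmeasured Cox5b. A match is a run of letters and not a measured binding site.

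In BAT, the genes of complex III, complex IV and ATP synthase fell together in Adipo-Pgam1 KO mice, except for 3 genes. Of the 31 genes, 28 fell and 2 rose (Atp5g1 and Atpif1), and Atp5g3 did not pass the test. The median log2 change was -1.11, against -0.08 over all 14276 genes tested, and it was -1.16, -1.11 and -0.98 for complex III, complex IV and ATP synthase. By the same test 34.0% of all genes fell and 27.5% rose. The levels of knockouts and controls did not overlap in any of these 30 genes, lower in 28 and higher in 2, as was the case for 57.1% of all genes. The counts depended on how arrays were scaled. With spike-in scaling 25 genes fell and 3 rose, where 1851 of all 14276 genes fell and 7212 rose. Atp5c1, Atp5g2 and Atp5j then missed the threshold. With quantile normalization 22 fell and 3 rose, where 4130 of all genes fell and 4452 rose. Uqcrq, Uqcrh, Cox5a, Atp5b, Atp5c1 and Atp5g2 then missed it. With the slide as a fixed block, the median change was -1.08, against -0.09 over all genes. But this fit sets the 4 knockout arrays against control replicate 4 alone, which is assumed to vary like the other controls. In bulk tissue, fewer cells of a type and less RNA per cell cannot be told apart.

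**Figure D1:**
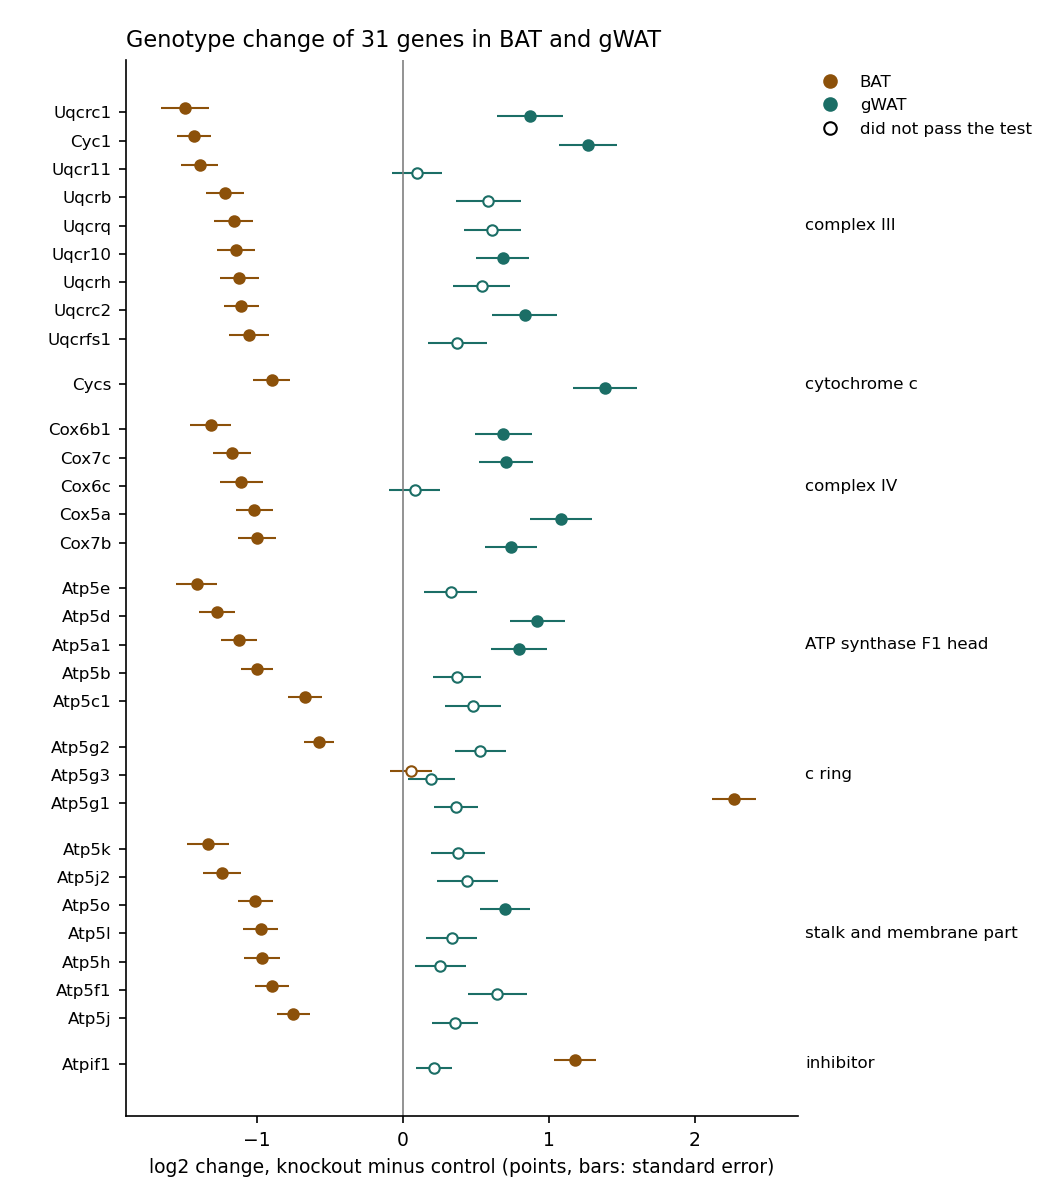
Log2 change, knockout minus control, of 31 genes in BAT (brown) and gWAT (green), grouped by complex and ordered within each group by the change in BAT. Points are limma estimates from 4 arrays against 4, bars are standard errors, and open points did not pass an adjusted p of 0.05. In BAT 28 genes lie left of zero, Atp5g1 and Atpif1 lie right of it at 2.27 and 1.18, and Atp5g3 lies near zero, whereas in gWAT all 31 lie right of zero.

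All 9 genes of complex III fell in BAT, by 1.06 to 1.50 on the log2 scale. The largest change was that of Uqcrc1, which encodes a core protein of the matrix side of the complex. Uqcrc1 stood at 8.77, 8.70, 8.92 and 8.61 in the controls and at 7.40, 7.07, 6.92 and 7.63 in Adipo-Pgam1 KO mice. The highest knockout array, replicate 4 at 7.63, lay well below the lowest control, and the change was -1.50 (standard error 0.16, adjusted p = 9.21e-05 in limma), a 2.82-fold fall. Next came Cyc1 (-1.44), the cytochrome c1 subunit that passes electrons to cytochrome c, and Uqcr11 (-1.39), a small subunit. The smallest change in the complex was that of Uqcrfs1, the Rieske iron-sulfur protein, at 7.88, 7.89, 7.98 and 8.07 in controls and 6.90, 6.79, 6.66 and 7.26 in knockouts. These groups did not overlap either, and the change was -1.06 (standard error 0.14, adjusted p = 0.000216 in limma). The other 5 genes, the second core protein Uqcrc2, the hinge protein Uqcrh, and the small subunits Uqcrb, Uqcrq and Uqcr10, lay between -1.22 and -1.11.

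Cycs fell as well. Its level was 8.94, 8.95, 9.11 and 9.08 in controls and 7.99, 8.08, 7.97 and 8.44 in knockouts. Knockout replicate 4 was again the highest of its group, and the change was -0.90 (standard error 0.12, adjusted p = 0.00031 in limma), a 1.87-fold fall.

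All 5 measured genes of complex IV fell in BAT, by 1.0 to 1.32 on the log2 scale. Cox6b1, a subunit known to link the copies of the complex in its dimer, changed most. It stood at 6.96, 6.84, 7.04 and 6.84 in controls and at 5.42, 5.57, 5.42 and 5.98 in knockouts, a change of -1.32 (standard error 0.14, adjusted p = 7.89e-05 in limma). The groups lay more than the spread of either apart. Cox7b, which is needed for assembly of the complex, changed least, from 8.11, 8.08, 8.20 and 8.29 to 7.11, 7.10, 6.97 and 7.50, or by -1.0 (standard error 0.13, adjusted p = 0.000202 in limma). Cox5a, one of the first nuclear subunits to join the assembling complex, changed by -1.02, and the small membrane subunits Cox6c and Cox7c by -1.11 and -1.17. Cox7c had a second, dimmer probe that went the other way, with a change of 0.33 (standard error 0.37). That probe stood at 3.72, 3.74 and 3.81 in control replicates 1 to 3 but at 5.45 in control replicate 4, the only control on the slide of the knockouts, which lay between 4.34 and 4.88. Of the 11 genes with more than 1 probe, Cox7c was the only one whose probes disagreed in sign.

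Of the 15 genes of ATP synthase, 13 fell, Atp5g1 rose and Atp5g3 did not pass the test. All 5 genes of the F1 head, where ATP is made, fell, by 0.67 to 1.41 on the log2 scale. Atp5e, the epsilon subunit of the central stalk, changed most, from 9.31, 9.31, 9.36 and 9.14 in controls to 7.67, 7.82, 7.72 and 8.26 in knockouts. That was a change of -1.41 (standard error 0.14, adjusted p = 5.83e-05 in limma), with no overlap between the groups. Atp5d, the delta subunit beside it, changed by -1.27, the alpha and beta subunits Atp5a1 and Atp5b by -1.13 and -1.0 (Atp5b by -0.048 under quantile normalization), and the gamma subunit Atp5c1, the rotating shaft, by -0.67. The 7 genes of the stator stalk and the membrane part also fell, by 0.75 to 1.34. Atp5k (subunit e) and Atp5j2 (subunit f) of the membrane part led with -1.34 and -1.24. The stator gene Atp5o changed by -1.01, the membrane gene Atp5l (subunit g) by -0.98, and the stator genes Atp5h, Atp5f1 and Atp5j by -0.97, -0.90 and -0.75.

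The 3 genes of the c ring went 3 ways in BAT. Atp5g1 was at 2.86, 2.58, 2.80 and 2.38 in controls and at 4.58, 5.06, 5.07 and 5.0 in Adipo-Pgam1 KO mice. Every knockout array lay far above the highest control, and the change was 2.27 (standard error 0.15, adjusted p = 1.24e-05 in limma), a 4.83-fold rise. Among the 14276 genes tested, 5.39% had a larger positive change. The second probe of Atp5g1 changed by 1.68, and on the brighter probe the knockout mean was 2.54 above control replicate 4, the single control on the same slide. Atp5g2 had the smallest change among the 28 genes that fell. It stood at 8.08, 7.98, 8.18 and 8.01 in controls and at 7.35, 7.47, 7.46 and 7.67 in knockouts, a change of -0.57 (standard error 0.10, adjusted p = 0.00123 in limma). The change was only -0.036 with spike-in scaling and -0.12 with quantile normalization, neither of which passed the test. Atp5g3 was at 6.97, 6.93, 7.18 and 7.16 in controls and at 6.73, 7.15, 7.22 and 7.35 in knockouts. Its knockout arrays lay on both sides of the controls, and the change was 0.05 (standard error 0.15, adjusted p = 0.768 in limma), but the call went either way with the scaling: Atp5g3 was called higher with spike-in scaling (0.59) and quantile normalization (0.34) and lower when arrays were scaled by Actb and Rplp0 (-0.54).

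**Figure D2:**
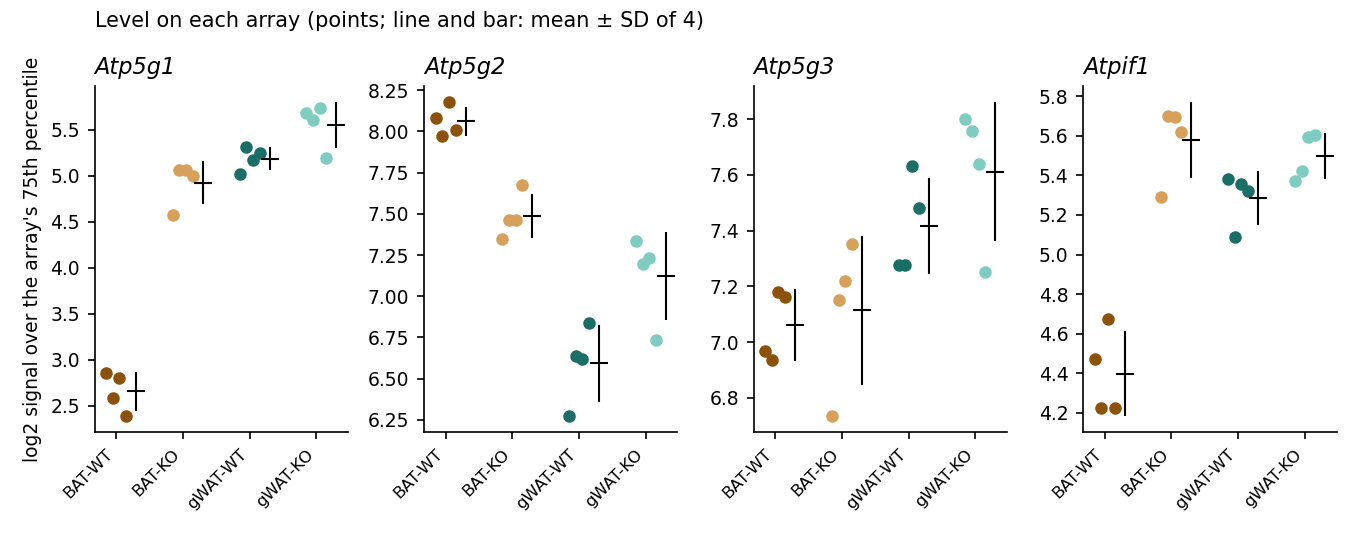
Level of Atp5g1, Atp5g2, Atp5g3 and Atpif1 on each of the 16 arrays, as log2 signal over the array's 75th percentile, by tissue and genotype, with the mean and SD of 4 arrays beside the points. Each panel has its own axis, which does not start at zero. Atp5g1 and Atpif1 were lowest in control BAT, where Atp5g1 lay between 2.38 and 2.86, while Atp5g2 was highest there, between 7.98 and 8.18.

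Atpif1 rose in BAT as well. Its level was 4.47, 4.22, 4.67 and 4.23 in controls and 5.29, 5.70, 5.69 and 5.62 in knockouts. The lowest knockout array was above the highest control, and the change was 1.18 (standard error 0.14, adjusted p = 0.000154 in limma), a 2.26-fold rise. Its second probe gave 1.24, and the knockout mean was 1.35 above the single control on the same slide. A larger positive change was found for 12.6% of the genes tested.

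Markers of some cell types moved with genotype in BAT, where 34.0% of all genes fell and 27.5% rose. All 8 listed genes of any adipocyte fell (median -1.05), and their summed signal, relative to the 75th percentile, was 2779 to 3048 in controls and 1008 to 1416 in knockouts. Of 8 macrophage genes, 6 rose (median 2.38), and their sum went from between 28.2 and 39.3 to between 88.9 and 131. Of 9 brown adipocyte genes, 6 fell, with sums of 2421 to 2577 and 928 to 1430, and Ucp1 was well above background on all 8 arrays. None of 5 endothelial genes passed the test, and of 3 tested T and B cell genes 1 rose. The sum of 13 skeletal muscle genes was 48.6 to 56.6 in controls and 10.8 to 159 in knockouts. The part of these cell types in the changes of the respiratory chain genes was not tested.

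In gWAT, all 31 genes had a higher mean in arrays labelled Adipo-Pgam1 KO, and 12 of them rose while none fell. Of all 14139 genes tested, 9.99% rose and 7.86% fell. The median log2 change of the 31 genes was 0.54, against 0.05 over all genes tested. Groups were apart in 10 of the 31 genes, all higher, against 24.2% of all genes in either direction and 13.3% in this one. The genes that rose were spread unevenly: 4 of 9 in complex III, Cycs, 4 of 5 in complex IV and 3 of 15 in ATP synthase. The median changes were 0.61, 0.71 and 0.38 for complex III, complex IV and ATP synthase, and the difference between the complexes was not tested. These calls depended on single arrays and on the slide. Without the fourth array labelled Adipo-Pgam1 KO, which was near the controls, 21 genes rose, where 2085 of all 14372 genes did. Between 4 and 11 of the 31 rose when any other array was left out, where 577 to 1168 of all genes did. When the slide was fitted as a block, leaving only control replicate 4 to compare with, none of the 31 genes passed the test (184 of all genes did, against 2524 without the block), and the slide of the other controls and the genotype cannot be fully told apart.

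**Figure D3:**
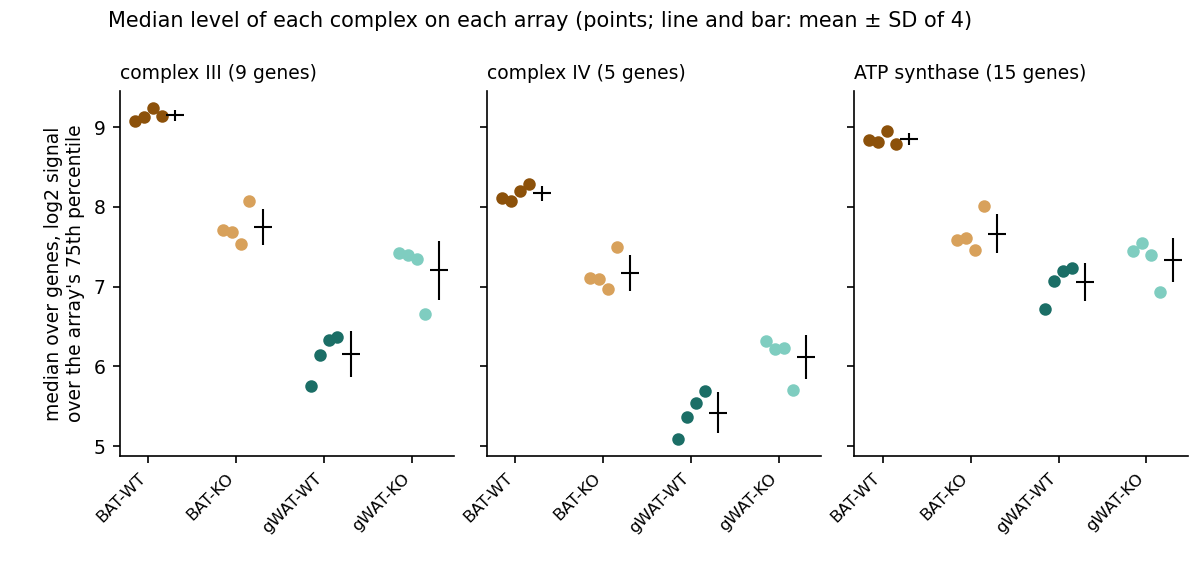
Median level over the 9 measured genes of complex III, 5 of complex IV and 15 of ATP synthase on each of the 16 arrays, as log2 signal over the array's 75th percentile, with the mean and SD of 4 arrays beside the points. In complex III the control BAT arrays lie between 9.08 and 9.24 and the knockout BAT arrays between 7.53 and 8.07, and control gWAT, between 5.75 and 6.38, lies below gWAT labelled Adipo-Pgam1 KO, between 6.66 and 7.42. Heights are comparable within a panel only.

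Cycs had the largest change in gWAT. It stood at 5.65, 5.77, 6.18 and 6.08 in controls and at 7.64, 7.50, 7.37 and 6.72 in the arrays labelled Adipo-Pgam1 KO. Replicate 4, at 6.72, was the lowest of these and still above every control, and the change was 1.39 (standard error 0.22, adjusted p = 0.00672 in limma), a 2.61-fold rise. The mean of these arrays was 1.23 above the single control on their slide.

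In complex III, Cyc1, the partner of Cycs, changed most in gWAT. Its level went from 5.74, 5.84, 6.07 and 6.14 to 7.46, 7.40, 7.35 and 6.66, with no overlap, a change of 1.27 (standard error 0.20, adjusted p = 0.00666 in limma). The core proteins Uqcrc1 and Uqcrc2 rose by 0.87 and 0.83 and Uqcr10 by 0.68, although replicate 4 of Uqcrc1, at 5.91, lay below the highest control, at 5.96. Uqcr11 changed least, from 6.98, 7.13, 7.46 and 7.48 to 7.42, 7.54, 7.46 and 7.02. Its groups overlapped widely, and the change of 0.10 (standard error 0.17, adjusted p = 0.731 in limma) turned to -0.20 under quantile normalization. Uqcrq, Uqcrb, Uqcrh and Uqcrfs1 had changes of 0.61, 0.59, 0.54 and 0.37 that did not pass the test.

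In complex IV, Cox5a changed most, from 6.45, 6.70, 7.03 and 7.0 in control gWAT to 8.15, 8.06, 7.97 and 7.35. The groups did not overlap, and the change was 1.09 (standard error 0.21, adjusted p = 0.0136 in limma). Cox7b, Cox7c and Cox6b1 rose by 0.74, 0.71 and 0.69. For Cox6b1, replicate 4 at 4.49 lay just below the highest control at 4.50, and the dimmer probe of Cox7c again went the other way, by -0.66. Cox6c did not pass the test: it stood at 6.69, 7.01, 7.07 and 6.94 in controls and at 7.15, 7.21, 7.11 and 6.56. The first 3 of these lay above all controls and the fourth below them, and the change was 0.08 (standard error 0.17, adjusted p = 0.78 in limma), or -0.25 under quantile normalization.

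In ATP synthase, Atp5d changed most in gWAT, from 4.96, 5.18, 5.36 and 5.45 to 6.38, 6.26, 6.32 and 5.68. The groups did not overlap, and the change was 0.92 (standard error 0.19, adjusted p = 0.0154 in limma). The alpha subunit Atp5a1 rose by 0.80 and the stator gene Atp5o by 0.70. The other 12 genes of the enzyme had changes between 0.20 and 0.65 that did not pass the test. Among them were the beta subunit Atp5b, at 0.37, and all 3 c-subunit genes. Atp5g1 stood at 5.02, 5.32, 5.17 and 5.25 in controls and at 5.68, 5.61, 5.74 and 5.19, a change of 0.37 (standard error 0.15, adjusted p = 0.125 in limma). Atp5g2 stood at 6.27, 6.64, 6.62 and 6.84 in controls and at 7.34, 7.19, 7.23 and 6.73, a change of 0.53 (standard error 0.18, adjusted p = 0.0695 in limma). In both genes the first 3 arrays lay above the controls and replicate 4 lay among them. Atp5g3 changed least in the enzyme, from 7.28, 7.28, 7.63 and 7.48 to 7.80, 7.76, 7.64 and 7.25, by 0.20 (standard error 0.16, adjusted p = 0.421 in limma). Atpif1 was at 5.38, 5.09, 5.36 and 5.32 in controls and at 5.37, 5.42, 5.60 and 5.60, which overlapped, and it changed by 0.21 (standard error 0.12, adjusted p = 0.258 in limma).

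Brown adipocyte markers did not all move alike in gWAT: 4 of the 6 tested rose, where 9.99% of all genes did. Elovl3, which changed most (4.35), was well above background on 3 of the 4 control arrays. Ppargc1a (-0.52) and Prdm16, at a mean of -1.98 in controls and -1.87 in arrays labelled Adipo-Pgam1 KO, did not pass the test. Zic1 was well above background on no gWAT array. The summed signal of the 9 listed, to which Cidea adds most, went from between 7.26 and 12.9 to between 60.8 and 165. Cidea, a lipid droplet protein of brown fat, ranged from 2.19 to 3.20 on the control arrays but from 5.51 to 6.99 on those labelled Adipo-Pgam1 KO. Ucp1 was well above background on none of the 4 control arrays and on 3 of the 4 labelled Adipo-Pgam1 KO. Of 4 white adipocyte genes, 3 fell, where 7.86% of all genes did. Of 8 macrophage genes 1 rose, near the share of all genes that rose, with sums of 69.5 to 96.8 and 69.2 to 181. The sum of 8 epididymis and testis genes ranged from 0.718 to 14.7 in controls and from 0.492 to 1.79 in arrays labelled Adipo-Pgam1 KO. None of the 3 of these genes that were tested passed. The part of all these cell types in the changes of the respiratory chain genes was not tested.

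The genotype change differed between gWAT and BAT for 30 of the 31 genes, by the interaction term of a limma fit to all 16 arrays. For 28 genes it was higher in gWAT, and for Atp5g1 and Atpif1 it was lower. By this test 27.4% of all 14807 genes were higher and 21.0% lower. The median difference was 1.71, against 0.07 over all genes, with the largest for Cyc1, at 2.70 (standard error 0.24, adjusted p = 3.94e-06), and the smallest of the 28 for Atp5g2, at 1.11 (standard error 0.20, adjusted p = 0.000545). The difference was -1.91 (standard error 0.22, adjusted p = 2.06e-05 in limma) for Atp5g1 and -0.97 (standard error 0.18, adjusted p = 0.00068 in limma) for Atpif1. It was 0.14 (standard error 0.22, adjusted p = 0.615 in limma) for Atp5g3. When the slide was fitted as a block, leaving 1 control array per tissue to compare with, the median difference was 1.37, against 0.07 over all genes.

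Because the 3 c-subunit genes encode 1 protein, the ratio of their signals was also compared on each array, which removes the scaling of the array. A ratio between probes has no meaning as an amount, and only its change between groups is reported. In BAT, the log2 ratio of Atp5g1 over Atp5g2 was -5.41 ± 0.17 (SD) in the 4 controls against -2.56 ± 0.19 (SD) in the 4 knockouts. It thus rose by 2.84 (standard error 0.13), and that of Atp5g1 over Atp5g3 rose by 2.22 (standard error 0.15), from between -4.78 and -4.11 to between -2.35 and -2.09. The ratio of Atp5g2 over Atp5g3 moved the other way, from 1.0 ± 0.11 to 0.37 ± 0.17 (SD, n = 4 each), or by -0.63 (standard error 0.10). Each of these 3 ratios kept knockouts and controls apart (p = 0.0286 by a two-sided exact permutation test, below which 4 arrays against 4 cannot go, and adjusted p = 0.0429 over 6 tests). The 3 ratios of a tissue share genes, so the 6 tests are not independent. The adjusted p depends on how many of them reach the smallest possible p. In gWAT, the ratio of Atp5g2 over Atp5g3 rose by 0.34 (standard error 0.11), from -0.82 ± 0.21 to -0.49 ± 0.07 (SD, n = 4 each), also without overlap (two-sided exact permutation test, adjusted p = 0.0429). Atp5g1 over Atp5g2 changed by -0.17 (standard error 0.08) and Atp5g1 over Atp5g3 by 0.17 (standard error 0.12), and neither passed the exact permutation test (adjusted p = 0.171 and 0.2). The permutation test leaves out the slide, which in each tissue only control replicate 4 shared with the knockout arrays. With the slide as a fixed block, Atp5g2 and Atp5g3 changed by 0.29 and 0.13 in gWAT. In BAT, Atp5g1, Atp5g2 and Atp5g3 then changed by 2.54, -0.52 and -0.05.

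**Figure D4:**
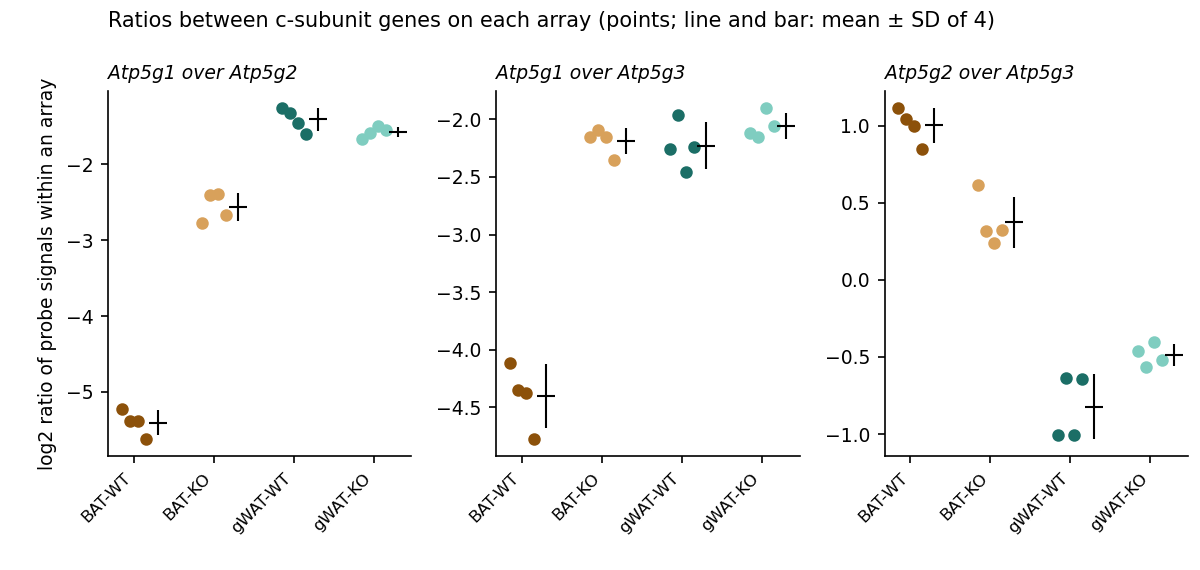
Log2 ratio of the probe signals of pairs of c-subunit genes on each of the 16 arrays, by tissue and genotype, with the mean and SD of 4 arrays beside the points. Axes differ between panels and do not start at zero. In BAT both ratios with Atp5g1 on top are higher in all 4 knockout arrays, and Atp5g2 over Atp5g3 is lower, between 0.24 and 0.62 against 0.85 to 1.11 in controls.

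The tissues differed before any knockout. In littermate controls, 28 of the 31 genes were lower in gWAT than in BAT, where 35.4% of all 14300 genes were lower and 29.3% higher. The median difference was -2.11, against -0.10 over all genes. Cyc1 differed most, with -3.28 (standard error 0.12, adjusted p = 5.29e-07 in limma), a 9.70-fold lower level in gWAT, followed by Cycs (-3.10), Uqcrc1 (-3.09) and Uqcrc2 (-2.94). The medians for complex III, complex IV and ATP synthase were -2.49, -2.70 and -1.83. Atp5j, coupling factor 6 of the stator, differed least of the 28, by -0.67. The 3 genes that were higher in control gWAT were Atp5g1, by 2.53 (standard error 0.14, adjusted p = 2.03e-06 in limma), Atpif1, by 0.89, and Atp5g3, by 0.36 (adjusted p = 0.0341 in limma). The difference of Atp5g3 ran from 0.02 to 1.12 over the alternatives, and it missed the threshold in several, median centring among them. Control BAT replicates 1 to 3 lay on slide 1 and control gWAT replicates 1 to 3 on slide 2. Tissue and slide thus cannot be fully told apart, and with the slide as a block Atp5g3 differed by 0.23. This comparison and that of genotype in BAT share the control BAT arrays, and the genotype changes of these 3 genes in BAT were 2.27, 1.18 and 0.05. Control BAT and control gWAT did not overlap in any of the 31 genes, nor in 60.8% of all genes.

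In Adipo-Pgam1 KO mice, 14 genes were lower in gWAT than in BAT and 3 were higher, with a median of -0.42 (all genes -0.05), where 23.5% of all 14439 genes were lower and 22.7% higher. All 5 measured genes of complex IV were lower, by 0.67 to 1.08 on the log2 scale, as were 6 of 9 in complex III, Cycs, and in ATP synthase Atp5h and Atp5j2. The 3 that were higher in gWAT were Atp5g1 (0.63), Atp5g3 (0.50) and Atp5j (0.43). Atpif1 differed by -0.08 (standard error 0.13, adjusted p = 0.638 in limma). The knockout arrays of BAT and gWAT lay on separate slides, so tissue and slide cannot be told apart here. In 27 of the 31 genes the group means stood in 1 order, rising from control gWAT over gWAT labelled Adipo-Pgam1 KO and knockout BAT to control BAT. Not every step was called: 12 of the 31 genes rose in gWAT, and the 14 above were lower in gWAT in Adipo-Pgam1 KO mice. The share of all genes in this order was not computed. The means of Atp5g1 and Atp5g3 were instead lowest in control BAT, then came knockout BAT, control gWAT and gWAT labelled Adipo-Pgam1 KO. For Atp5g3 control and knockout BAT did not differ beyond their spread, and neither gene passed the test of genotype in gWAT. Atpif1 was lowest in control BAT and highest in knockout BAT, and Atp5j was lowest in knockout BAT and highest in control BAT.

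Further genes of the chain, its assembly and its regulators were read against the shares of all genes that fell and rose, 34.0% and 27.5% in BAT and 7.86% and 9.99% in gWAT. All 4 genes of complex II, which feeds electrons from succinate into the chain, fell (Sdhc by 1.45), and 3 of them rose in gWAT. Of 27 tested assembly factors of complexes III and IV, 20 fell in BAT and none rose, among them Pet100 (-1.66) and Uqcc3 (-1.39). In gWAT 4 of the 27 rose and none fell. Of 11 assembly factors and small partners of ATP synthase, 9 fell in BAT and none rose, among them Atpaf2 (-1.28), which helps build the F1 head, and Tmem70 (-1.13), which helps the c ring assemble. Of the same 11, 3 rose in gWAT and none fell. Of the other 11 tested complex IV subunits and isoforms, 9 fell in BAT, led by the brown fat isoforms Cox8b (-1.70) and Cox7a1 (-1.62), and Cox6a2 rose. In gWAT 4 of these 11 rose, Cox6a2 among them, and none fell. Cox6a2, the isoform known from heart and muscle, was between -4.98 and -4.12 in control BAT, where it was well above background on 1 of 4 arrays, and between 4.56 and 5.0 in knockout BAT. Its gWAT level ran from -2.95 to -1.5 in controls and from 3.40 to 4.40 in arrays labelled Adipo-Pgam1 KO, a change of 6.24 (adjusted p = 0.000136 in limma). Of 19 regulators of these genes, 10 fell in BAT, 4 rose and the other 5 did not pass the test, so that the share that rose was below that of all genes, while none of the 17 tested in gWAT passed. The co-activator Ppargc1b fell by 1.94 and the receptors Esrrg and Esrra by 1.25 and 0.59, whereas Myc (2.35), Atf4 (1.64), Pprc1 (1.50) and Nrf1 (0.71) rose.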

How the data were processed

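The labels describe 16 one-colour Agilent arrays. Per the file headers and the submitters' processing notes, signals were extracted with Agilent Feature Extraction 10.7.1.1, and the deposited scanner files hold the background-subtracted signal intensity of each of 56605 probes. A normalized table that the authors deposited, used here as an alternative, holds for each probe a ratio, close to its intensity over the 75th percentile of the array. The labels and the study's methods differ in the amount of RNA per array. Irregular spots and control spots were left out and spots of 1 probe averaged. Intensities were put on the log2 scale over the array's 75th percentile, which lay between 401 and 916. Per array, 50.0% to 62.2% of probes were detected well above background, no spot was saturated, and precision is limited by the number of arrays. RefSeq identifiers of 32994 probes were matched to symbols, with the brightest probe per gene. A gene was tested if all 4 arrays of either group compared showed it well above background. limma 3.58.1 in R 4.3.3 was used with the Benjamini-Hochberg adjustment, and exact permutation tests in Python 3.11.15. The script was tested on simulated data. The 32 genes and the further lists were chosen with earlier results of these data known. All genes were described by role, with arrays' values for the c-subunit genes and for the genes with the largest, smallest or opposite change in each complex. Alternatives were other scalings, background correction (normexp on the median signal, offset 50), filters, probe averaging, slide and replicate blocks, leaving out each array, a fit to all arrays and the methods' t-test.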

Additional observations from a re-analysis of the deposited data

Results flagged for a closer look

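Of 124 groups of 4 arrays, 1 for each gene, tissue and genotype, 18 held an array that stood apart by Dixon's test at the 95% level. Chance alone gives about 6.2 on average, but all genes were read on the same arrays, so the 18 are not independent of each other. In 15 of the 18 it was replicate 4 of the gWAT arrays labelled Adipo-Pgam1 KO, 1 of the 2 arrays aged 14 weeks, and it was always the lowest of its group. Its values were 6.16 for Uqcrb, 7.79 for Uqcrh, 7.76 for Uqcr10 and 6.66 for Cyc1 in complex III, and 4.49 for Cox6b1, 6.56 for Cox6c and 5.63 for Cox7b in complex IV. In ATP synthase they were 8.20 for Atp5b, 7.43 for Atp5c1, 5.68 for Atp5d, 6.26 for Atp5f1, 6.91 for Atp5h, 6.32 for Atp5j2, 7.59 for Atp5l and 7.68 for Atp5o. The widest gap was in Uqcrh, whose other 3 arrays lay between 8.39 and 8.40. In BAT, replicate 4 of the Adipo-Pgam1 KO mice was the highest of its group for Cox6c (8.18) and Atp5b (9.0), and replicate 1 was the lowest for Atp5g1, at 4.58 against 5.0 to 5.07.

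The genotype change differed between gWAT and BAT, by the interaction term in limma, for 30 genes. The difference, gWAT minus BAT, was 2.37 for Uqcrc1, 1.94 for Uqcrc2, 1.43 for Uqcrfs1, 1.81 for Uqcrb, 1.77 for Uqcrq, 1.66 for Uqcrh, 1.83 for Uqcr10, 1.49 for Uqcr11 and 2.70 for Cyc1. For Cycs it was 2.29, and in complex IV it was 2.11 for Cox5a, 2.01 for Cox6b1, 1.19 for Cox6c, 1.75 for Cox7b and 1.88 for Cox7c. In the F1 head it was 1.92 for Atp5a1, 1.37 for Atp5b, 1.15 for Atp5c1, 2.19 for Atp5d and 1.74 for Atp5e. In the stalk and membrane part it was 1.55 for Atp5f1, 1.23 for Atp5h, 1.11 for Atp5j, 1.68 for Atp5j2, 1.71 for Atp5k, 1.31 for Atp5l and 1.71 for Atp5o. Of the c-subunit genes it was 1.11 for Atp5g2 and -1.91 for Atp5g1, and for Atpif1 it was -0.97.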

How the results depend on the processing

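In BAT, 28 genes fell and 2 rose whichever array was left out, with a median change of -1.20 to -1.04, but 25 fell and 3 rose with spike-in scaling, 29 and 2 with Actb and Rplp0 scaling, 22 and 3 with quantile normalization, and 27 and 2 with the mean of all probes. Of all genes, 1851 fell and 7212 rose with spike-in scaling, and 8897 and 1917 with Actb and Rplp0 scaling. With quantile normalization 4130 fell and 4452 rose, and with the mean of all probes 4899 and 3754. The median of the 31 genes moved to -0.57 with spike-in scaling, -1.70 with Actb and Rplp0 scaling and -0.46 with quantile normalization. Over all genes the median moved to 0.46, -0.67 and 0.02. The spike-in and Actb and Rplp0 scalings shift all genes of an array alike, so the distance between these medians is the same by construction, and quantile normalization brought it from -1.03 to -0.48. In gWAT, leaving out single arrays gave 4 to 21 genes that rose and a median of 0.42 to 0.69. Median centring, no filter and the methods' t-test after adjustment each gave 4 (17 without adjustment at the methods' threshold), the replicate block 2, the slide as a fixed block 0, and spike-in scaling 30, with a median of 0.99. For the difference between tissues, the median was 2.24 with Actb and Rplp0 scaling (where 1 gene was lower), 0.79 with quantile normalization and 1.37 with the slide as a fixed block. Between tissues in controls it was -1.88 with spike-in scaling, -2.44 with Actb and Rplp0 and -1.01 with quantile normalization. Between tissues in knockouts, the replicate block left 9 genes lower and 1 higher, no filter 1 higher, and leaving out single arrays 10 to 13 lower and 1 to 3 higher. Leaving out arrays gave medians of 1.61 to 1.85 for the difference between tissues, -2.18 to -2.0 in controls (28 lower, 2 to 3 higher) and -0.49 to -0.29 in knockouts.

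The ratios of c-subunit genes called in the exact permutation test kept their direction, but missed the threshold after adjustment under quantile normalization. There Atp5g1 over Atp5g2, Atp5g1 over Atp5g3 and Atp5g2 over Atp5g3 changed by 2.54, 2.07 and -0.46 in BAT (adjusted p = 0.0571, exact permutation), and Atp5g2 over Atp5g3 by 0.30 in gWAT (adjusted p = 0.129). Leaving out single arrays gave 2.77 to 2.92, 2.09 to 2.32 and -0.71 to -0.58 in BAT, and -0.23 to -0.12, 0.09 to 0.26 and 0.28 to 0.40 in gWAT.

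Single genes changed sign as follows. In BAT, Atp5g3 was -0.54 with Actb and Rplp0 scaling, -0.049 with the slide as a fixed block and -0.026 without knockout replicate 4. In gWAT, quantile normalization gave -0.20 for Uqcr11, -0.25 for Cox6c, -0.094 for Atp5g3, -0.035 for Atp5h and -0.0079 for Atpif1, and the slide as a fixed block gave -0.12 for Uqcr11. The difference between tissues was -0.44 for Atp5g3 under quantile normalization. Between tissues in knockouts, Atp5a1 was 0.057 with Actb and Rplp0 scaling, and Atpif1 was 0.054 with spike-in scaling and 0.12 with Actb and Rplp0 scaling. There Atp5c1, at -0.016, was 0.039 with median centring, 0.12 with spike-in scaling, 0.18 with Actb and Rplp0 scaling, 0.092 with quantile normalization, 0.00064 with normexp, 0.07 without BAT-KO replicate 4 and -0.072 to 0.13 without single gWAT-KO arrays. The cause was not tested.

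Replicate numbers were not taken to pair the arrays, because not every pair's correlation was over 0.1. The deviations of same-numbered arrays correlated with r between 0.01 and 0.19 in BAT, -0.16 and 0.55 in gWAT, -0.03 and 0.18 between tissues in controls (over 0.1 in 3 of 4 pairs) and -0.14 and 0.27 in knockouts (over 0.1 in 2 of 4), so that a shared animal across tissues is not settled. With the replicate block, counts of called genes in BAT, between tissues in controls and for the difference between tissues changed by less than 1.5 times. Within same-numbered pairs the c-subunit ratios could not pass, since 4 pairs give no exact permutation p below 0.125. The slide could not be fitted between tissues in knockouts.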
